A study of Mus musculus with 24 samples.

Results

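The 41 genes described here encode the sensors, transcription factors, chaperones, folding enzymes and degradation machinery with which a cell meets unfolded protein in its endoplasmic reticulum (ER). They were chosen by name, and all 41 were found among the 23234 gene symbols of each expression table. RNA-seq values were examined for primary B cells from the spleens of C57BL/6 mice, taken directly after isolation. Of 24 samples, 12 were used, in 4 groups of 3 libraries: control (CTL) CD93- cells, CD93- cells titled Tet DKO, CTL CD93+ cells, and CD93+ cells titled Tet KO. Both Tet-titled groups carry the genotype Tet2/Tet3-deficient and are called DKO here, and the 2 missing genes encode enzymes that oxidise methylated cytosine in DNA. Another 12 samples, of CD93- cells divided by their CD23 and CD21, were not analysed here. The labels give no age, allele, deleted exon, Cre driver or pooling for any group, and do not say that replicates came from separate mice, so the p-values speak of the spread among libraries, which may be technical in part or in whole.

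The ER lumen is watched by the membrane proteins IRE1 (Ern1), PERK (Eif2ak3) and ATF6. IRE1 splices Xbp1 mRNA, PERK slows translation and thereby favours ATF4 and then CHOP (Ddit3), and ATF6 is cut to release a transcription factor. Together they raise chaperones, disulfide enzymes and the ER-associated degradation (ERAD) machinery, which draws misfolded proteins back to the cytosol for the proteasome. Plasma cells, the antibody-secreting end stage of B cells, depend on the IRE1 and XBP1 branch and carry large amounts of these proteins.

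Values are FPKM as deposited, which are scaled by transcript length and library, so levels of different genes can be set side by side within a table. Log2 changes are DKO minus CTL on log2(FPKM + 1), given ± their standard error. The scale makes changes of low genes look smaller, and adjusted p-values come from limma over all tested genes with a threshold of 0.05. Because the CD93- and CD93+ tables may have been scaled separately, no test was made between them. B cell markers such as Cd79a were abundant in all 12 libraries, and Cd93 lay at 3.32 to 4.65 FPKM in the CD93- libraries and at 27.98 to 59.9 FPKM in the CD93+ libraries. Tet2 and Tet3 did not pass the test in either table with the authors' scaling. After the rescaling described next Tet3 fell in both, by 0.41 in CD93- (adjusted p = 0.0018, and between 0.0018 and 0.634 across the alternatives) and by 0.66 log2 units in CD93+ cells (adjusted p = 0.015, and between 0.015 and 0.948 across the alternatives), and Tet2 did not pass. Since the labels do not give the deleted part, their gene-level values check no label. DKO replicate 3 of the CD93+ cells stood apart, with an FPKM sum of 309359 against 523898 to 597968 in the other 5. The upper quartile of its tested genes was 15.4 FPKM against 25.8 to 30.0, so results are also given after rescaling every library to a common upper quartile. Over all tested genes the median log2 change was 0.11 in CD93- and -0.22 in CD93+ cells with the authors' scaling, and -0.08 and -0.01 after rescaling. Xist and Ddx3y placed male cells in all 6 CD93- libraries and in CTL replicates 1 and 2 of the CD93+ cells, and female cells in CTL replicate 3 and the 3 DKO libraries. The 3 CTL libraries of the CD93+ cells were thus not all from the same animal.

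In CD93- cells most chaperones and folding enzymes rose, and most sensors and ERAD genes did not pass the test. Of 39 members tested with limma, 25 rose and 0 fell (27 and 0 at an unadjusted p under 0.05), where 18.7% of all 10960 tested genes rose and 2.79% fell. All 3 DKO libraries lay above all 3 CTL libraries for 30 of the 39, against 31.5% of all tested genes. The median log2 change of the members was 0.63, and 36 of 39 lay above the median of all tested genes. After rescaling, 26 rose and 2, Herpud1 and Eif2ak3, fell, where 17.1% of all tested genes rose and 23.8% fell. Trib3 and Chac1, both under 1 FPKM in these 6 libraries, were not tested. Asns, among the 25, reached 1 FPKM, the level needed for testing, only in DKO libraries. In these sorted bulk samples, more cells of a kind rich in these transcripts and more transcript in each cell cannot be told apart.

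In CD93+ cells 9 members, most of them chaperones, folding enzymes and secreted factors, rose beyond a wider spread. Of 40 members tested with limma, these 9 rose (Hsp90b1, Sdf2l1, Pdia4, Txndc5, Fkbp11, Creld2, Manf, Derl3 and Chac1) and 0 fell (19 and 0 at an unadjusted p under 0.05), where 1.67% of all 11250 tested genes rose and 1.54% fell. The 3 DKO libraries lay above the 3 CTL libraries for 18 of the 40, against 2.94% of all tested genes. The members' median log2 change was 0.71, and 35 of 40 lay above the median of all tested genes. After rescaling, 29 rose and 2, Edem3 and Eif2ak3, fell, against 11.4% and 9.34% of all tested genes. Without DKO replicate 3, with the authors' scaling, 24 members rose, among them all 9, whereas leaving out CTL replicate 1 or CTL replicate 2 left 3, and leaving out DKO replicate 1 or DKO replicate 2 left 5. The calls of Hsp90b1, Txndc5 and Manf were lost in 8 of 24 alternatives each, that of Sdf2l1 in 4 and that of Chac1 in 9 of 23. Chac1 reached 1 FPKM, the level needed for testing, only in DKO libraries. Trib3 was not tested. With the authors' scaling the fit gave every gene of a given level the same spread, so a very small p-value there rests on the size of the change and not on the gene's own replicates.

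**Figure D1:**
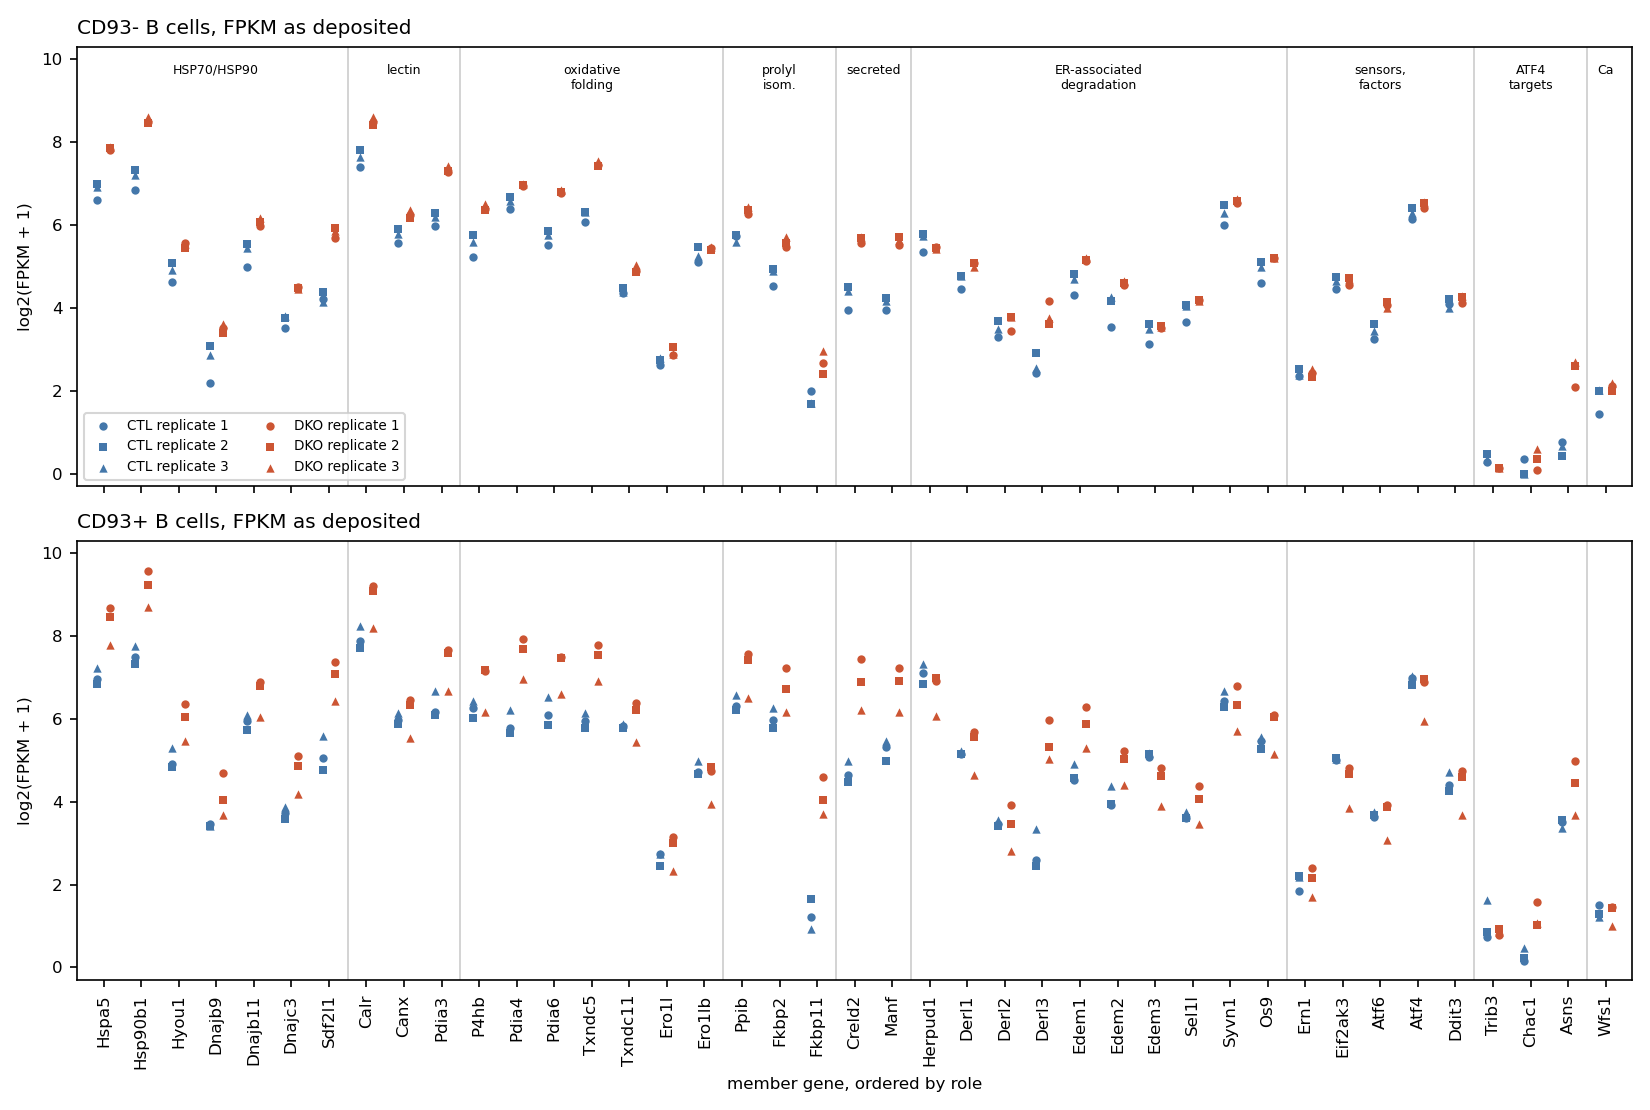
Level of each of the 41 genes in every library, as log2(FPKM + 1), for CD93- cells (top) and CD93+ cells (bottom). Points are libraries, blue for CTL and orange for DKO, and genes are ordered by role. For chaperones such as Hspa5 the 3 DKO libraries lie above the 3 CTL libraries in both panels, and in the lower panel DKO replicate 3 (triangles) lies under the other DKO libraries for most genes.

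Genes of the unfolded protein response are known for short promoter elements. Promoters of 37 members were found in the RefSeq table, as 250 bases before to 50 after each transcript start of the build GRCm38.p6, a build other than the mm9 of the expression values. Hyou1, Manf, Derl1 and Atf6 were not matched. The ER stress response element (CCAAT, then 9 bases of any kind, then CCACG), bound by NF-Y and ATF6 or XBP1, was searched on both strands. It occurred in 10 of the 37 members (27.0%) and in 37 of all 27025 genes of the table (0.137%), that is, members were 10 of the 37 genes that hold it. Members were chosen as known genes of this response, so this share is a description. A gene was counted once over all of its starts. The stretches that carry it are shown because they are what these 10 genes share besides their function, with the 2 arms of the element in capitals, 10 flanking bases in lower case, and each read 5′ to 3′ in the direction of the element.
Hspa5, chr2:34772015-34772053, plus strand: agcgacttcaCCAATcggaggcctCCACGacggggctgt
Hsp90b1, chr10:86705628-86705666, minus strand: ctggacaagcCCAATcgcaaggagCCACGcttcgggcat
Hsp90b1, chr10:86705523-86705561, plus strand: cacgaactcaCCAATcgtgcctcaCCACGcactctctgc
Dnajc3, chr14:118937817-118937855, plus strand: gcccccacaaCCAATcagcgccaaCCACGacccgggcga
Calr, chr8:84847065-84847103, plus strand: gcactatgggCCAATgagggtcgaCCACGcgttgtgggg
Canx, chr11:50325790-50325828, minus strand: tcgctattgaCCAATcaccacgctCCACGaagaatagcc
Pdia6, chr12:17266481-17266519, plus strand: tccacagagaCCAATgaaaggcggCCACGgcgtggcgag
Ero1lb, chr13:12565672-12565710, minus strand: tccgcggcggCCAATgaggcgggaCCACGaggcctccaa
Creld2, chr15:88819510-88819548, minus strand: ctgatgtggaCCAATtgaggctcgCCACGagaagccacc
Derl3, chr10:75893232-75893270, minus strand: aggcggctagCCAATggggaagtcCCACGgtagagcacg
Syvn1, chr19:6046522-6046560, plus strand: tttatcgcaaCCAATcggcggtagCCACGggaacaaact
Hsp90b1 holds the element in both orientations. Read in the direction of the gene, all 250 bases before the start of Hspa5, the most studied promoter of this kind, carry 1 complete element (capitals) close to the start.
Hspa5, chr2:34771840-34772089, plus strand: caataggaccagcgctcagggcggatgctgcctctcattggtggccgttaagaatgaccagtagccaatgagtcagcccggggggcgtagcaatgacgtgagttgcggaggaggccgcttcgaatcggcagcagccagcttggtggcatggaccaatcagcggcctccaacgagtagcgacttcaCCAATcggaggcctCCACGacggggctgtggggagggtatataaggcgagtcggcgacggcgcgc

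The 10 members with the element changed in CD93- cells by a median log2 value of 0.95, and 8 of them rose. The 25 tested and matched members without it had a median of 0.52, and 14 of them rose. Of all tested genes 18.7% rose there. In CD93+ cells 3 of the 10 and 5 of 26 others rose with the authors' scaling, against 1.67% of all tested genes. After rescaling, 8 of the 10 rose with a median log2 change of 1.25, and 18 of the 26 rose with a median of 0.86. Of all tested genes 11.4% rose there. The difference between the sets was not tested. Ero1lb and Syvn1 carry the element and passed the test in neither population under either scaling.

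Other elements were searched in the same way. ER stress response element II (ATTGG, then 1 base, then CCACG) was found in Dnajb11 and Herpud1 and in 0.0444% of all genes. The core TGACGTGG of the unfolded protein response element, bound by XBP1, was found in Txndc5 and Txndc11 and in 0.714% of all genes. The ATF4 composite element was found as TGATGCAA in Herpud1 and Chac1 (1.03% of all genes) and as TGATGAAA in Txndc5 and Asns (1.15%). The short motif CCACG occurred in 86.5% of the members against 35.5% of all genes, and CCAAT in 83.8% against 41.1%, counts that include the arms of complete elements. The stretches below are those of genes to which the results return, with the element in capitals and each read in its direction.
Herpud1 (element II), chr8:94386367-94386397, plus strand: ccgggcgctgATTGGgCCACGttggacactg
Herpud1 (ATF4 composite), chr8:94386307-94386334, minus strand: gggtgcgggcTGATGCAAcccgccgtgg
Txndc5 (XBP1 core), chr13:38528035-38528062, minus strand: gcctcgccgcTGACGTGGcgctagccgc
Txndc11 (XBP1 core), chr16:11134617-11134644, minus strand: gaagtgtggcTGACGTGGagagtccggg
Chac1 (ATF4 composite), chr2:119351039-119351066, minus strand: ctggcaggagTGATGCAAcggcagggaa
Asns (ATF4 composite), chr6:7693215-7693242, minus strand: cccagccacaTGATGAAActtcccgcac

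**Figure D2:**
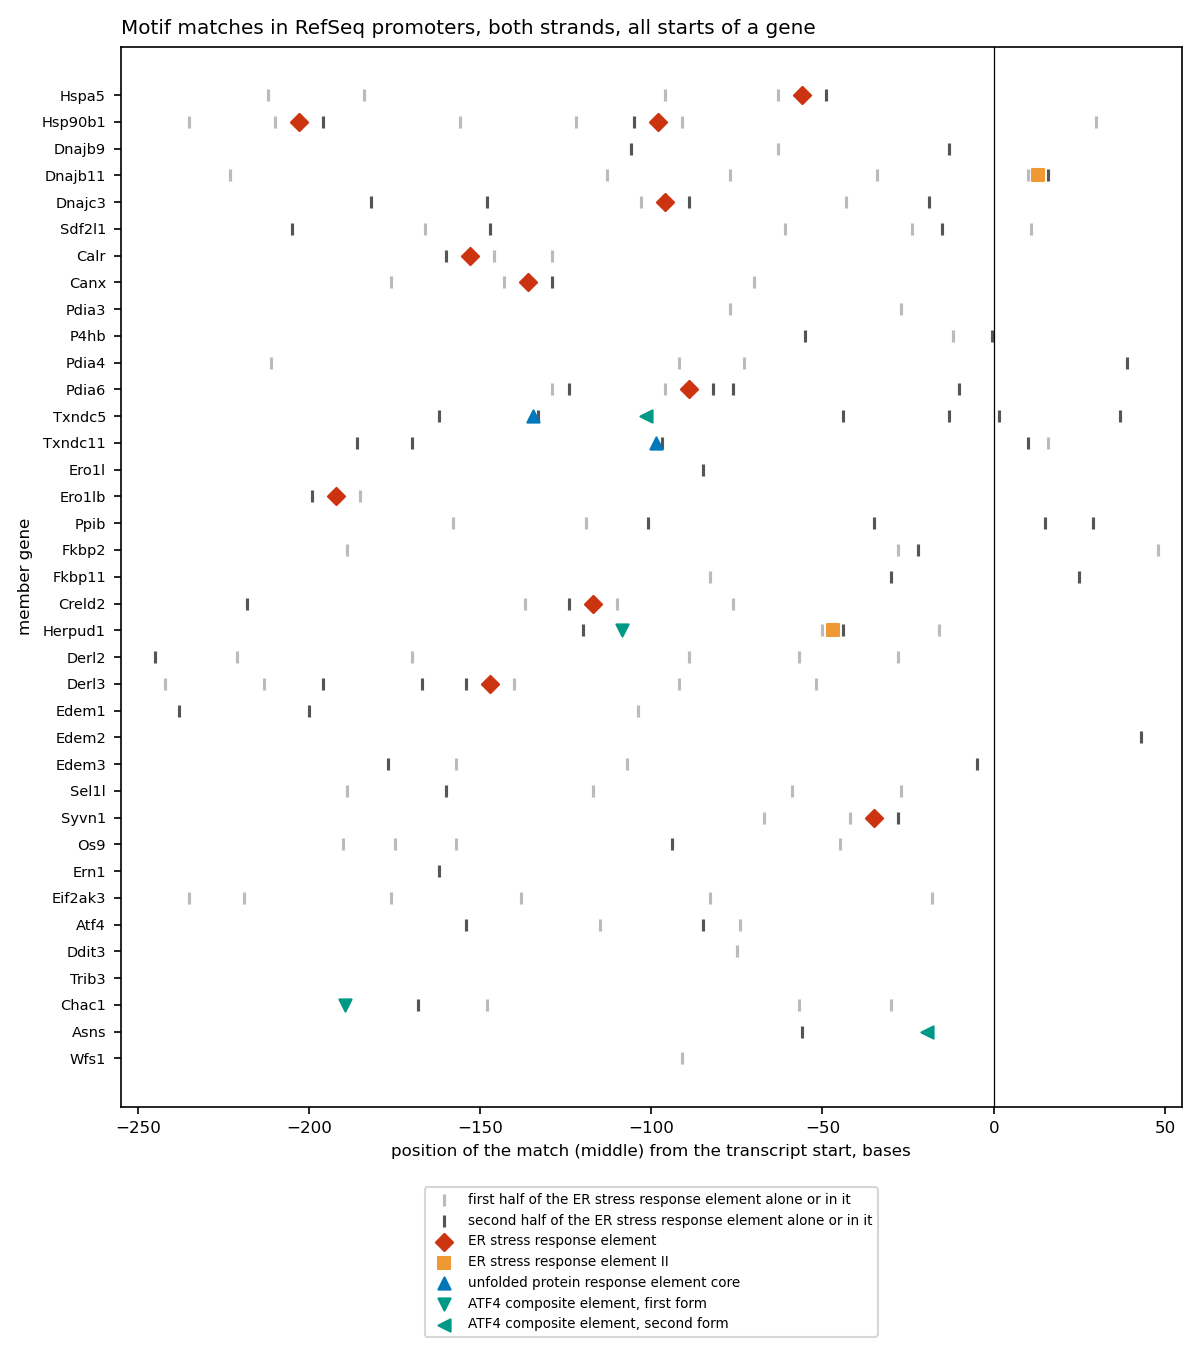
Position of element matches in the promoters of the 37 matched members, in bases from the transcript start, which is the line at 0. Ticks are the short motifs and larger symbols the complete elements, which lie before the start in all 10 genes that hold the ER stress response element. Trib3 shows no match in this window.

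The chaperones of the HSP70 and HSP90 system bind nascent chains as they enter the ER. Hspa5 (BiP), the HSP70 of the ER and the protein that holds the sensors inactive, was at 96.4, 127 and 120.3 FPKM in the CTL libraries and 226, 233 and 237 FPKM in the DKO libraries of CD93- cells (log2 change 1.02 ± 0.14, adjusted p = 2.55e-04). The lowest DKO library lay well above the highest CTL library. In CD93+ cells Hspa5 was at 124, 113 and 149.6 FPKM in the CTL libraries and 408, 352 and 218 FPKM in the DKO libraries (log2 change 1.30 ± 0.43, adjusted p = 0.0714). The groups did not overlap there either, and the change of 1.54 after rescaling passed the test (adjusted p = 3.79e-04, and between 3.69e-04 and 0.948 across the alternatives).

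Hsp90b1 (GRP94), the HSP90 of the ER, stood at 115, 161 and 148 FPKM in the CTL libraries and 360.04, 351 and 389 FPKM in the DKO libraries of CD93- cells (log2 change 1.38 ± 0.15, adjusted p = 4.26e-05). Its CD93+ values were 179.5, 159 and 215 FPKM in the CTL libraries and 759.9, 594 and 411 FPKM in the DKO libraries (log2 change 1.63 ± 0.44, adjusted p = 0.00805). DKO replicate 3 was the lowest DKO library and still higher than any CTL library by more than the spread among the CTL libraries. The ER resident Sdf2l1, a partner of Hspa5 and its J proteins, was at 17.7, 20.03 and 16.6 FPKM against 50.7, 59.98 and 56.7 FPKM in CD93- cells and rose 3.08-fold by the means (log2 change 1.57 ± 0.13, adjusted p = 5.40e-06). Its CD93+ level was 32.2, 26.3 and 46.9 FPKM against 164, 135 and 84.5 FPKM, a 3.65-fold difference (log2 change 1.82 ± 0.41, adjusted p = 4.56e-04). Sdf2l1 had the largest change of the 7 genes of this system in both populations.

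All 7 genes of the system rose in CD93- cells, under both scalings. Besides the 3 above these were Hyou1, the large nucleotide exchange factor of Hspa5 (28.6 ± 4.45 to 45.03 ± 1.77 FPKM, SD, n = 3), and the J protein cofactors Dnajb9 (5.81 ± 2.02 to 10.4 ± 0.838 FPKM), Dnajb11 (39.8 ± 7.90 to 66.8 ± 4.95 FPKM) and Dnajc3 (11.98 ± 1.34 to 21.4 ± 0.359 FPKM). Dnajb9, the lowest of them, lost its call in 4 of 22 alternatives. In CD93+ cells 2 of the 7 rose with the authors' scaling, and all 7 rose after rescaling, Hyou1 by 1.19, Dnajb9 by 0.95, Dnajb11 by 0.90 and Dnajc3 by 1.22 log2 units.

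Calnexin (Canx) and calreticulin (Calr) are lectins that hold glycoproteins during folding, and Pdia3 is the disulfide isomerase that works with them. Pdia3 was at 62.5, 76.97 and 72.3 FPKM in the CTL libraries and 154, 156 and 172 FPKM in the DKO libraries of CD93- cells (log2 change 1.18 ± 0.13, adjusted p = 5.56e-05). Calr, together with Hsp90b1 the most abundant member, was at 167, 224 and 200.4 FPKM against 357, 343 and 387 FPKM (log2 change 0.88 ± 0.14, adjusted p = 9.81e-04). Canx had the smallest change of the 3, from 53.3 ± 6.19 to 75.6 ± 4.96 FPKM (log2 change 0.50 ± 0.13, adjusted p = 0.0178), and lost its call in 5 of 22 alternatives. The groups did not overlap for any of the 3. In CD93+ cells 0 of the 3 passed with limma and the authors' scaling (2 with unadjusted p under 0.05), and Calr (291 FPKM) and Canx (45.1 FPKM) of DKO replicate 3 lay under the highest CTL library. After rescaling all 3 rose, by 1.24 (Pdia3), 1.14 (Calr) and 0.36 (Canx) log2 units, with no overlap of the groups.

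Enzymes of oxidative folding make, break and reshuffle disulfide bonds, which antibodies need in number. In CD93- cells 5 of 7 rose. Txndc5, an isomerase rich in plasma cells, was at 66.4, 79.1 and 78.4 FPKM in the CTL libraries and 175, 171 and 186 FPKM in the DKO libraries (log2 change 1.24 ± 0.13, adjusted p = 2.95e-05). Pdia6, an isomerase of the Hspa5 complex, was at 45.2, 56.8 and 53.2 FPKM against 109, 111 and 115 FPKM (log2 change 1.10 ± 0.13, adjusted p = 8.77e-05). For both, every DKO library exceeded every CTL library by more than the range within either group. P4hb, the archetypal disulfide isomerase, rose from 45.8 ± 8.74 to 84.95 ± 4.29 FPKM (adjusted p = 0.00122), and Txndc11 from 20.3 ± 0.940 to 29.6 ± 2.03 FPKM (adjusted p = 0.00937, lost in 5 of 22 alternatives).

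Pdia4 is an isomerase with several thioredoxin-like domains. Its CD93- values were 83.6, 102 and 94.9 FPKM in the CTL libraries and 121, 124 and 125 FPKM in the DKO libraries (log2 change 0.41 ± 0.13, adjusted p = 0.0395), a call lost in 10 of 22 alternatives. In CD93+ cells it was at 53.9, 49.3 and 73.7 FPKM in the CTL libraries and 242, 206 and 124 FPKM in the DKO libraries, a 3.23-fold difference between the means (log2 change 1.64 ± 0.42, adjusted p = 0.00396), a call lost in 7 of 24 alternatives. After rescaling the changes were 0.18 and 1.89, and the difference between populations was not tested since the tables are separate. Txndc5 in CD93+ cells stood at 61.1, 54.1 and 69.8 FPKM in the CTL libraries and 217, 184 and 120.1 FPKM in the DKO libraries (log2 change 1.44 ± 0.42, adjusted p = 0.0193). These 2 were the oxidative enzymes that rose in CD93+ cells with the authors' scaling, and after rescaling P4hb (0.83), Pdia6 (1.28), Txndc11 (0.42) and Ero1l (0.39) rose as well.

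Ero1l and Ero1lb encode the oxidases that pass electrons from disulfide isomerases to oxygen. Ero1l was at 5.22, 5.68 and 5.98 FPKM against 6.36, 7.31 and 6.44 FPKM in CD93- cells (log2 change 0.22 ± 0.13, adjusted p = 0.283) and Ero1lb at 33.8, 43.2 and 37.01 FPKM against 42.4, 41.04 and 43.3 FPKM (log2 change 0.16 ± 0.13, adjusted p = 0.456). Neither passed. Ero1lb, whose promoter carries the ER stress response element, had a change of -0.06 in CD93- and -0.03 in CD93+ cells after rescaling, and its direction in CD93- cells turned with the scaling.

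Prolyl isomerases speed the turn of peptide bonds at proline. Fkbp11, a membrane FKBP of secretory cells, was at 2.97, 2.23 and 2.27 FPKM in the CTL libraries and 5.39, 4.33 and 6.80 FPKM in the DKO libraries of CD93- cells (log2 change 0.89 ± 0.17, adjusted p = 0.00257). In CD93+ cells it was at 1.31, 2.15 and 0.895 FPKM in the CTL libraries and 22.98, 15.5 and 11.97 FPKM in the DKO libraries, an 11.6-fold difference of the means and the largest log2 change of any member in either table (log2 change 2.85 ± 0.32, adjusted p = 5.12e-16). After rescaling the change was 3.02 (adjusted p = 9.73e-04, and between 1.95e-17 and 0.0278 across the alternatives). Fkbp11 was the single one of the 9 CD93+ calls kept in every one of the 24 alternatives. In CD93- cells Fkbp2 rose from 27.002 ± 4.21 to 47.001 ± 4.28 FPKM (log2 change 0.79 ± 0.14, adjusted p = 0.00218) and Ppib, cyclophilin B, from 50.96 ± 3.13 to 80.6 ± 4.84 FPKM (log2 change 0.65 ± 0.12, adjusted p = 0.00258). In CD93+ cells neither passed with the authors' scaling, while their changes of 0.95 and 1.04 after rescaling did.

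Creld2 and Manf encode small proteins that stay in the ER under rest and are released under stress. Both rose in both populations under either scaling. Creld2 was at 14.5, 21.9 and 20.4 FPKM in the CTL libraries and 46.9, 50.4 and 51.5 FPKM in the DKO libraries of CD93- cells (log2 change 1.36 ± 0.15, adjusted p = 6.51e-05) and at 23.8, 21.3 and 30.4 FPKM against 173, 118 and 72.6 FPKM in CD93+ cells (log2 change 2.15 ± 0.40, adjusted p = 7.89e-06). Manf was at 14.5, 17.8 and 17.1 FPKM in the CTL libraries and 45.2, 51.5 and 49.2 FPKM in the DKO libraries of CD93- cells (log2 change 1.51 ± 0.13, adjusted p = 7.21e-06) and at 39.2, 30.7 and 43.4 FPKM against 149, 119.7 and 70.2 FPKM in CD93+ cells (log2 change 1.501 ± 0.40, adjusted p = 0.00907). In all 4 comparisons the lowest DKO library lay above the highest CTL library. With the authors' scaling in CD93+ cells, the call of Manf was lost without the filter on low values, with the replicate block, with sex as a covariate and on leaving out any library but DKO replicate 3, and that of Creld2 without the filter and with sex as a covariate.

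ERAD genes were divided. In CD93- cells 3 of 10 rose, and in CD93+ cells 1 of 10 (6 after rescaling). Derl3, a derlin of the retrotranslocation channel and the one most bound to secretory cells, was at 4.37, 6.56 and 4.88 FPKM in the CTL libraries and 17.04, 11.2 and 12.7 FPKM in the DKO libraries of CD93- cells (log2 change 1.22 ± 0.18, adjusted p = 4.11e-04). The CD93+ libraries had it at 4.99, 4.49 and 9.20 FPKM in the CTL libraries and 61.8, 38.9 and 31.5 FPKM in the DKO libraries, a 7.08-fold difference (log2 change 2.64 ± 0.37, adjusted p = 1.79e-10). The 2 groups lay far apart in both tables, and the CD93+ call was lost in 1 of 24 alternatives, that without a filter on low values. Of its relatives, Derl1 was at 24.4 ± 3.09 against 32.3 ± 1.14 FPKM in CD93- cells (log2 change 0.39 ± 0.13, adjusted p = 0.0522, and passing at 0.18 after rescaling), and Derl2 at 10.4 ± 1.54 against 11.8 ± 1.65 FPKM (log2 change 0.17 ± 0.15, adjusted p = 0.493).

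The Edem proteins trim mannose from misfolded glycoproteins. Edem2 was at 10.7, 16.99 and 18.4 FPKM against 22.6, 23.2 and 24.1 FPKM in CD93- cells (log2 change 0.60 ± 0.18, adjusted p = 0.0281) and Edem1 rose there from 23.7 ± 4.29 to 35.04 ± 0.921 FPKM (log2 change 0.56 ± 0.15, adjusted p = 0.0161). Both CD93- calls were lost without DKO replicate 3 with the authors' scaling. In CD93+ cells Edem1 was at 21.9, 22.8 and 28.9 FPKM against 76.5, 57.4 and 37.99 FPKM (log2 change 1.14 ± 0.39, adjusted p = 0.0889), and after rescaling Edem1 and Edem2 rose by 1.38 and 1.03 log2 units. Edem3 did not pass in CD93- cells (9.74 ± 1.72 against 10.6 ± 0.234 FPKM, log2 change 0.13 ± 0.14, adjusted p = 0.603). In CD93+ cells it was at 32.5, 34.8 and 34.8 FPKM in the CTL libraries and 27.2, 23.4 and 13.8 FPKM in the DKO libraries (log2 change -0.69 ± 0.38, adjusted p = 0.476), with every DKO library below every CTL library, and its change of -0.46 after rescaling passed (adjusted p = 0.0163, and between 0.0163 and 0.998 across the alternatives).

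Herpud1, a membrane organiser of ERAD complexes and a usual marker of ER stress, was at 39.6, 54.5 and 52.7 FPKM in the CTL libraries and 43.5, 43.1 and 42.3 FPKM in the DKO libraries of CD93- cells (log2 change -0.17 ± 0.14, adjusted p = 0.455). With the authors' scaling the groups overlapped through CTL replicate 1. After rescaling they did not, and Herpud1 fell by 0.39 log2 units (adjusted p = 0.00137, and between 0.00136 and 0.754 across the alternatives). Its CD93+ level was 137, 114 and 159 FPKM against 119, 125 and 65.7 FPKM (log2 change -0.44 ± 0.42, adjusted p = 0.716), with a change of -0.20 after rescaling that did not pass. Its mean was thus lower in DKO cells of both populations, and its promoter holds the element II and the ATF4 composite element printed above. Syvn1 (HRD1), the ubiquitin ligase, was at 76.9 ± 12.9 against 95.2 ± 3.23 FPKM in CD93- cells, its partner Sel1l at 14.4 ± 2.37 against 17.2 ± 0.199 FPKM and the lectin Os9 at 29.3 ± 5.24 against 35.9 ± 0.0929 FPKM, and 0 of the 3 passed under either scaling (limma). In CD93+ cells after rescaling Sel1l (0.54), Os9 (0.57) and Derl1 (0.36) rose.

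**Figure D3:**
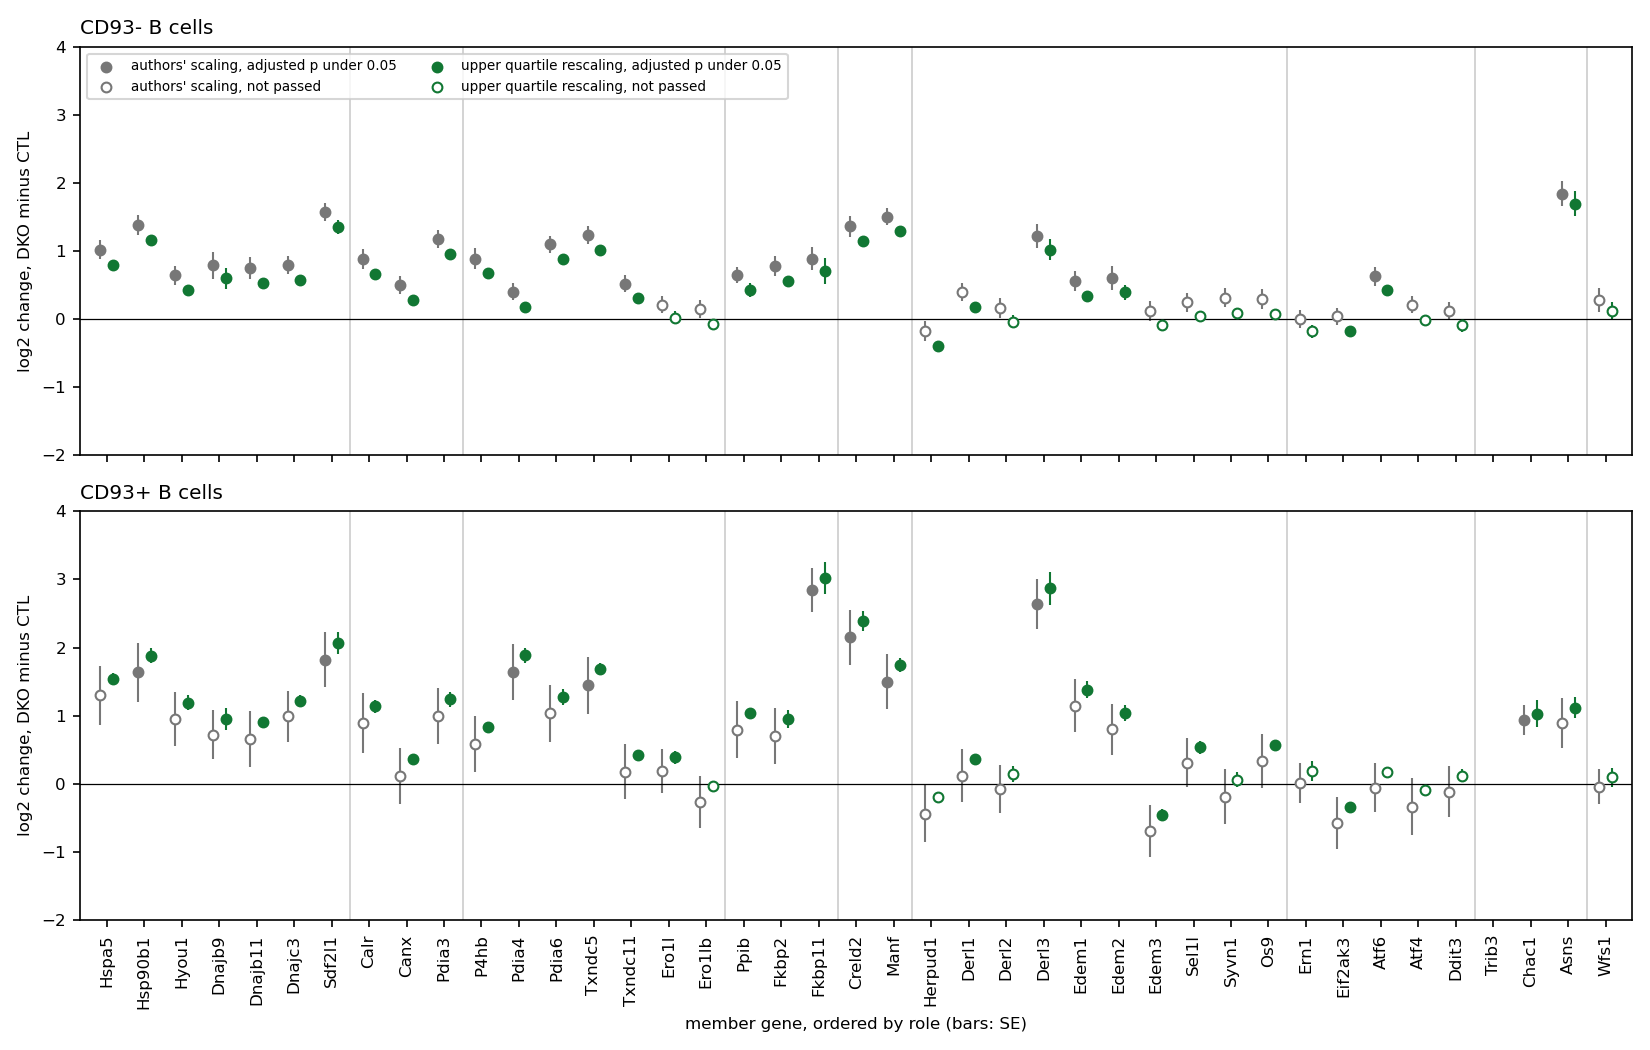
Log2 change (DKO minus CTL) of each tested gene with its standard error, by role, in CD93- cells (top) and CD93+ cells (bottom). Grey points use the authors' scaling and green points upper quartile rescaling, and filled points passed an adjusted p of 0.05. Chaperones and folding enzymes lie mostly above 0, sensors lie near it, and the error bars of the authors' scaling are wider in CD93+ cells.

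The sensors and their transcription factors had the lowest median log2 change of all roles with the authors' scaling, 0.12 in CD93- and -0.12 in CD93+ cells. After rescaling these medians were -0.09 and 0.11, both with the sign turned, and in CD93+ cells that of the calcium regulator Wfs1 (0.09) was lower. Ern1 (IRE1) was at 4.15, 4.77 and 4.26 FPKM in the CTL libraries and 4.41, 4.03 and 4.81 FPKM in the DKO libraries of CD93- cells (log2 change 0.01 ± 0.14, adjusted p = 0.982) and at 2.57, 3.64 and 3.52 FPKM against 4.31, 3.47 and 2.22 FPKM in CD93+ cells (log2 change 0.01 ± 0.29, adjusted p = 0.993). With the authors' scaling the groups overlapped in both tables. After rescaling every DKO library of CD93- cells lay below every CTL library for Ern1, and the change of -0.18 did not pass. Eif2ak3 (PERK) was at 21.1, 26.1 and 24.1 FPKM in the CTL libraries and 22.7, 25.4 and 25.1 FPKM in the DKO libraries of CD93- cells (log2 change 0.04 ± 0.13, adjusted p = 0.867) and at 31.2, 31.9 and 31.8 FPKM against 27.3, 24.4 and 13.4 FPKM in CD93+ cells (log2 change -0.58 ± 0.38, adjusted p = 0.579). In the latter every DKO library was below every CTL library. After rescaling Eif2ak3 fell in both, by 0.17 in CD93- (adjusted p = 0.0447, and between 0.0447 and 0.977 across the alternatives) and by 0.35 log2 units in CD93+ cells (adjusted p = 0.0274, and between 0.0274 and 0.998 across the alternatives).

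Atf6 was the exception in CD93- cells. It was at 8.57, 11.2 and 9.94 FPKM in the CTL libraries and 15.8, 16.7 and 14.9 FPKM in the DKO libraries (log2 change 0.63 ± 0.14, adjusted p = 0.00563), with no overlap, and passed in all 22 alternatives. In CD93+ cells it was at 11.3, 11.7 and 12.5 FPKM against 14.2, 13.7 and 7.42 FPKM (log2 change -0.06 ± 0.36, adjusted p = 0.969), and DKO replicate 3 lay under all CTL libraries. Atf4 was at 70.3, 84.9 and 77.1 FPKM against 84.1, 92.5 and 93.2 FPKM in CD93- cells (log2 change 0.22 ± 0.13, adjusted p = 0.272) and at 125, 112 and 131 FPKM against 118, 124 and 61.1 FPKM in CD93+ cells (log2 change -0.34 ± 0.42, adjusted p = 0.78). Ddit3 (CHOP), which drives death under lasting stress, was at 16.01, 17.6 and 14.98 FPKM against 16.3, 18.1 and 18.6 FPKM in CD93- cells (log2 change 0.12 ± 0.13, adjusted p = 0.562) and at 19.996, 18.2 and 25.3 FPKM against 25.9, 23.2 and 11.7 FPKM in CD93+ cells (log2 change -0.12 ± 0.37, adjusted p = 0.937). Neither passed under either scaling, and these mRNA levels say nothing of splicing, phosphorylation, cleavage or translation, through which the sensors act. Wfs1, a membrane protein of ER calcium and ATF6 turnover, was low, at 1.71, 3.01 and 3.08 FPKM against 3.36, 2.98 and 3.55 FPKM in CD93- and 1.83, 1.46 and 1.31 FPKM against 1.73, 1.71 and 0.990 FPKM in CD93+ cells, and did not pass.

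Of the targets of ATF4 and CHOP, Asns, which makes asparagine, had the largest log2 change among the members in CD93- cells. It was at 0.690, 0.345 and 0.601 FPKM in the CTL libraries and 3.28, 5.03 and 5.51 FPKM in the DKO libraries, an 8.45-fold difference between the means (log2 change 1.84 ± 0.18, adjusted p = 2.31e-05). The groups did not overlap, and Asns rose in all 21 alternatives in which it was tested. All 3 CTL libraries lay under 1 FPKM, so Asns met the filter of 1 FPKM only because its DKO libraries were high. In CD93+ cells the CTL libraries already held more, with 10.4, 10.8 and 9.26 FPKM in the CTL libraries and 30.6, 21.01 and 11.7 FPKM in the DKO libraries (log2 change 0.89 ± 0.36, adjusted p = 0.231), and the change of 1.12 after rescaling passed (adjusted p = 0.00646, and between 0.0013 and 0.995 across the alternatives). Chac1, which degrades glutathione, was at 0.110, 0.168 and 0.393 FPKM in the CTL libraries and 1.97, 1.02 and 1.09 FPKM in the DKO libraries of CD93+ cells (log2 change 0.93 ± 0.22, adjusted p = 0.0018), and at most 0.506 FPKM in CD93- cells. In CD93+ cells Chac1 likewise met the filter only through its DKO libraries. Trib3, a pseudokinase that feeds back on ATF4, had no value above 2.06 FPKM in any library and was at 0.214, 0.402 and 0.280 FPKM against 0.111, 0.104 and 0.0935 FPKM in CD93- cells. Their upstream factors Atf4 and Ddit3 passed the test in neither population.

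Together the 41 genes took a larger share of the FPKM sum in DKO libraries. In CD93- cells this share was 0.381%, 0.430% and 0.426% in the CTL libraries and 0.616%, 0.585% and 0.604% in the DKO libraries. The CD93+ share was 0.329%, 0.338% and 0.414% against 0.811%, 0.713% and 0.802%. DKO replicate 3 of the CD93+ cells, low in FPKM for nearly all members, was like the other DKO libraries by this share. The share needs no rescaling, although haemoglobin and other red cell transcripts took 10.8% and 10.5% of the sum in CTL replicates 1 and 2 of the CD93+ cells and 1.07% to 2.68% in the other 4.

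**Figure D4:**
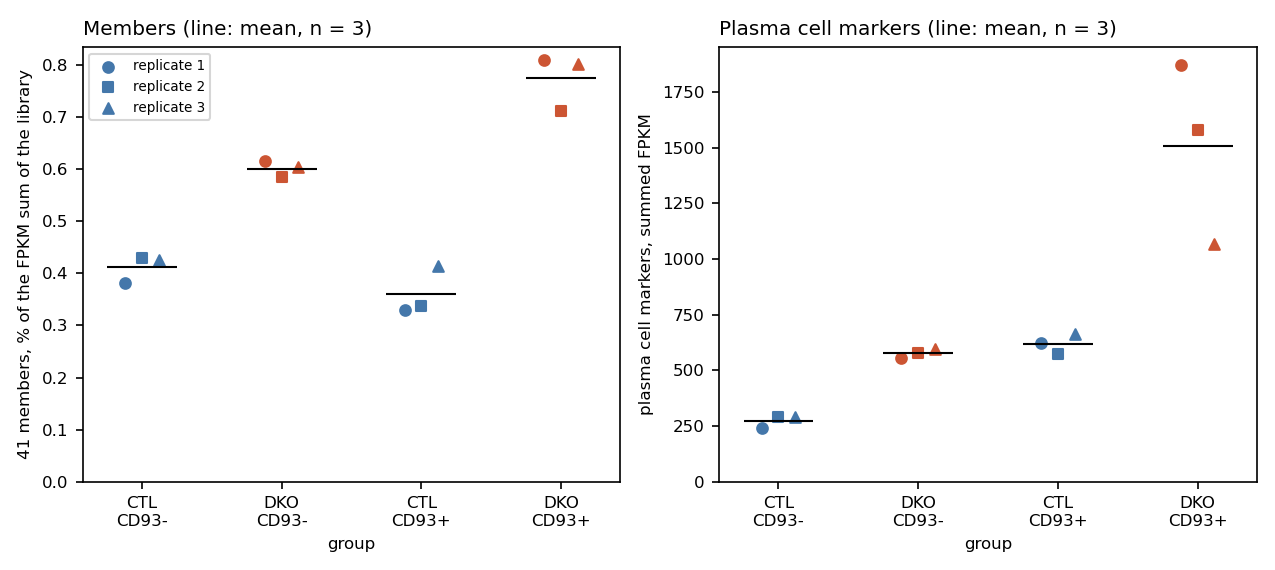
Summed FPKM of the 41 genes as a percentage of the library's FPKM sum (left) and summed FPKM of 11 plasma cell markers (right), by group. Points are libraries and lines are means of 3. The DKO libraries lie above the CTL libraries of the same population in both panels, and most of the rise in the right panel is that of the marker Igj.

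The log2 changes of the members were set side by side in the 2 populations. Across the 39 members tested in both, Pearson's r of the log2 changes was 0.758 and Spearman's rho 0.840, against 0.391 and 0.480 across all 10446 genes tested in both. Both are descriptions across genes, which are not independent replicates, and the populations share no library. With the authors' scaling 8 members (20.5%) rose in both, against 1.05% of all genes, and after rescaling 25 members (64.1%), against 7.33%. The secreted factors, Derl3, Sdf2l1, Hsp90b1 and Txndc5 were among the highest in both, Asns had its larger change in CD93- cells, and Fkbp11, Derl3 and Pdia4 in CD93+ cells. A larger CD93+ change was not particular to these genes. After rescaling the members' median log2 change was 0.42 in CD93- and 0.95 in CD93+ cells, a difference that was not tested. Among CD93+ libraries of female cells alone, after rescaling, the 3 DKO libraries lay above CTL replicate 3 for 32 of 40 members, against 31.7% of all tested genes, and below it for 5, against 36%. The 5 were Ero1lb, Herpud1, Edem3, Eif2ak3 and Atf4. With sex as a covariate 2 members rose with the authors' scaling and 22 after rescaling.

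**Figure D5:**
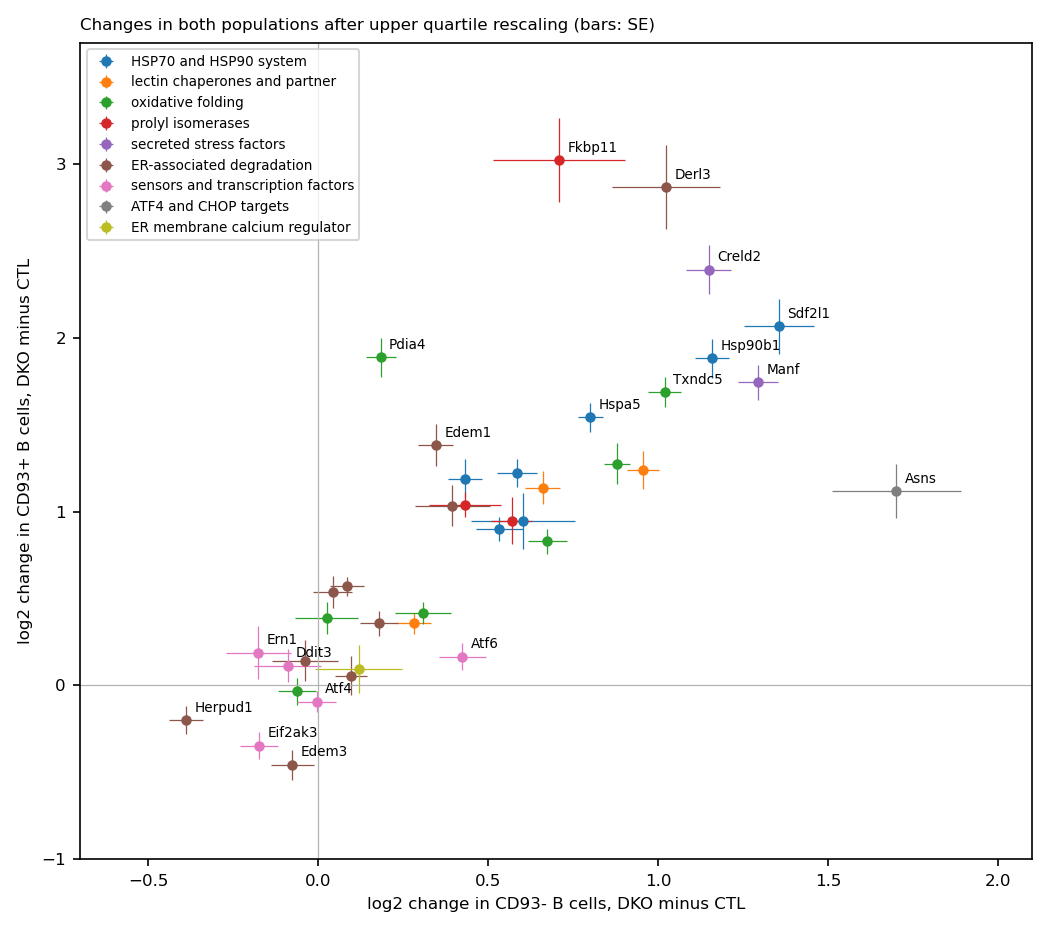
Log2 change after upper quartile rescaling in CD93- cells (x axis) and CD93+ cells (y axis) for the 39 genes tested in both, with standard errors as bars and colours for roles. Most genes lie in the upper right, with Fkbp11 and Derl3 highest on the y axis, Asns far along the x axis, and Herpud1, Eif2ak3 and Edem3 under 0 on both.

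Xbp1, the transcription factor made by IRE1 splicing and not a member of the set, was at 29.5, 41.3 and 36.4 FPKM in the CTL libraries and 81.6, 82.6 and 89.3 FPKM in the DKO libraries of CD93- cells (log2 change 1.23 ± 0.14, adjusted p = 7.56e-05). Its CD93+ values were 38.1, 33.3 and 51.4 FPKM in the CTL libraries and 205, 163 and 106 FPKM in the DKO libraries (log2 change 1.90 ± 0.41, adjusted p = 2.68e-04). Gene-level FPKM does not separate its spliced from its unspliced form. Of 19 tested regulators of the response besides the members, 7 rose and 0 fell in CD93- cells, against 18.7% and 2.79% of all tested genes. After rescaling 7 of these regulators rose and 3 (Mbtps1, Eif2ak4 and Traf2) fell, against 17.1% and 23.8% of all tested genes. Regulators that rose under both scalings included Creb3l2, a membrane-bound factor of secretory capacity (2.65 ± 0.772 to 5.50 ± 0.451 FPKM), Eif2ak2, the kinase PKR (9.62 ± 0.579 to 15.5 ± 1.71 FPKM), and Bak1, a pore former of cell death (15.7 ± 3.93 to 27.9 ± 3.17 FPKM). In CD93+ cells 1, Xbp1, rose and 1, Ppp1r15a (GADD34), which restores translation, fell (74.7, 64.01 and 26.8 FPKM against 25.6, 27.02 and 8.11 FPKM). That fall did not pass after rescaling, when 6 rose and 0 fell. Of all tested genes in CD93+ cells 1.67% rose and 1.54% fell, and 11.4% and 9.34% after rescaling.

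Further folding and degradation genes were counted in the same way. Of all tested genes 18.7% rose in CD93- cells, and after rescaling 17.1% rose and 23.8% fell. Of 27 further ER folding genes tested in CD93- cells 9 rose, among them Prdx4, an ER peroxidase (6.60 ± 0.510 to 18.5 ± 4.23 FPKM), Erp29 (90.3 ± 12.8 to 146 ± 7.63 FPKM), Cnpy2 (13.6 ± 0.455 to 23.3 ± 0.681 FPKM) and Prkcsh, a subunit of glucosidase II (25.5 ± 6.35 to 41.8 ± 2.73 FPKM), and the list's median log2 change was 0.28. Of 31 further ERAD genes 5 rose, with a median of 0.18, a share no larger than the 18.7% of all tested genes, and after rescaling 4 rose and 2 (Herpud2 and Jkamp) fell. The 5 included Vcp, the ATPase that extracts substrates (62.6 ± 9.23 to 101 ± 4.84 FPKM), Rad23b, a shuttle to the proteasome (18.5 ± 1.39 to 25.8 ± 1.70 FPKM), the mannosidase Man1b1 (18.4 ± 2.97 to 24.9 ± 0.771 FPKM) and Selk (27.7 ± 2.69 to 37.2 ± 3.47 FPKM). In CD93+ cells 0 of 28 and 0 of 31 passed with limma and the authors' scaling, and 7 and 5 rose after rescaling, against 11.4% of all tested genes. At an unadjusted p under 0.05 with the authors' scaling, the counts were 1 higher and 0 lower of 28, and 0 higher and 1 lower of 31.

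Among 19 tested ATF4 targets 7 rose and 0 fell in CD93- cells, and after rescaling 7 rose and 3 (Slc7a1, Cebpg and Gadd45a) fell. Of all tested genes 18.7% rose and 2.79% fell there, and 17.1% and 23.8% after rescaling. Psat1 (9.53 ± 1.83 to 23.9 ± 1.31 FPKM) and Phgdh (32.1 ± 5.43 to 70.6 ± 5.55 FPKM) act in serine synthesis, Mthfd2 (6.48 ± 1.85 to 12.5 ± 0.222 FPKM) in folate metabolism, and Slc7a5 (6.58 ± 1.07 to 15.6 ± 0.0742 FPKM) carries amino acids into the cell. Of 21 tested in CD93+ cells 0 rose and Gadd45a fell (48.1, 47.7 and 27.7 FPKM against 21.2, 22.2 and 9.79 FPKM), and after rescaling 5 rose and 2 (Slc1a5 and Gadd45a) fell. Of all tested genes 1.67% rose and 1.54% fell there, and 11.4% and 9.34% after rescaling. Cytosolic heat shock genes, which answer to another stress pathway, rose in 6 of 9 cases in CD93- cells, led by Hspa8 (434 ± 63.2 to 751 ± 23.1 FPKM), Hspe1 (78.4 ± 4.16 to 136 ± 7.95 FPKM), Hsp90ab1 (440.4 ± 66.8 to 689 ± 32.6 FPKM) and Hsp90aa1 (85.9 ± 8.62 to 130.1 ± 6.81 FPKM). In CD93+ cells 0 of 11 passed with limma (1 at an unadjusted p under 0.05), and 9 of 11 rose after rescaling. The shares of all tested genes given above for each population hold for these heat shock counts too.

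Markers of plasma cells and of division were read beside these results. Plasma cell markers summed to 241 to 293 FPKM in CTL and 557 to 597 FPKM in DKO libraries of CD93- cells, and to 573 to 662 and 1067 to 1871 FPKM in CD93+ cells, and 7 of 10 and 5 of 10 tested markers rose. After rescaling 7 rose and 0 fell in CD93- cells, and 5 rose and 1 fell in CD93+ cells. Of all tested genes, 18.7% rose in CD93- and 1.67% in CD93+ cells, and 17.1% and 11.4% after rescaling. Igj, the joining chain of polymeric antibody, was at 4.49, 9.78 and 9.09 FPKM against 192, 212 and 221 FPKM in CD93- and at 36.6, 26.99 and 40.6 FPKM against 1148, 933 and 688 FPKM in CD93+ cells. Most of the rise in the marker sums was that of Igj, so the sums do not speak for the other markers. In CD93+ cells the markers other than Igj and Xbp1 did not sum higher in DKO libraries. Fam46c (0.519 ± 0.174 to 16.2 ± 0.848 FPKM) and Ell2 (7.05 ± 0.708 to 19.2 ± 0.470 FPKM), both high in plasma cells, rose in CD93- cells, and Cd28 (1.39 ± 0.494 to 5.01 ± 1.44 FPKM), a receptor of T cells as well as of long-lived plasma cells, rose in CD93+ cells. Fam46c, counted among the 7, reached 1 FPKM, the level needed for testing, only in DKO libraries. Sdc1, the surface marker of plasma cells, was at 4.70 ± 1.14 against 5.66 ± 1.13 FPKM in CD93- and 18.1 ± 1.45 against 16.9 ± 5.79 FPKM in CD93+ cells and did not pass. Xbp1 and Ell2 belong to this marker list as well as to the biology of secretion, and no plasma cell marker was at 0 in all libraries of a group. Of 20 proliferation genes 19 rose in CD93- cells, among them Mki67 (6.26 ± 1.60 to 33.8 ± 1.76 FPKM), Ccnb2 (2.51 ± 0.423 to 17.8 ± 2.92 FPKM), Birc5 (3.86 ± 1.53 to 20.9 ± 3.39 FPKM) and Rrm2 (5.63 ± 2.07 to 32.2 ± 0.684 FPKM), whereas 0 of 20 passed with limma in CD93+ cells (1 at an unadjusted p under 0.05) and 5 rose after rescaling. The part of plasma cells and of dividing cells in the members' changes was not tested.

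Markers of other cells were read as well. Of all tested genes 18.7% rose and 2.79% fell in CD93- cells, and 1.67% rose and 1.54% fell in CD93+ cells. After rescaling these shares were 17.1% and 23.8% in CD93-, and 11.4% and 9.34% in CD93+ cells. T cell markers summed to 33.5 to 54.6 against 59.3 to 63.9 FPKM in CD93- cells, where 4 of 10 rose, Cd8b1 by the largest amount (5.22 ± 1.56 to 8.83 ± 0.839 FPKM), and to 89.8 to 112 against 58.9 to 187 FPKM in CD93+ cells, where 0 of 10 passed with limma, also at an unadjusted p under 0.05. Dendritic cell markers summed to 27.8 to 43.2 against 35.4 to 38.01 FPKM in CD93- cells, where Itgax rose (5.33 ± 1.77 to 9.18 ± 0.360 FPKM) with 1 other of 6, and to 7.71 to 10.1 against 8.54 to 11.2 FPKM in CD93+ cells. After rescaling 2 of the 6 rose and 2 fell in CD93- cells. Macrophage markers summed to 20.8 to 27.04 against 24.2 to 27.1 FPKM and to 159 to 260.1 against 108 to 286 FPKM. NK cell markers summed to 43.7 to 88.7 against 71.7 to 84.5 FPKM in CD93- cells, and to 18.0 to 38.0 against 25.6 to 79.7 FPKM in CD93+ cells, where Nkg7 (8.69, 8.42 and 12.6 FPKM against 37.95, 30.5 and 11.9 FPKM) and Gzmb (0.371, 0.718 and 0.737 FPKM against 6.64, 10.9 and 1.37 FPKM) rose. Gzmb reached the 1 FPKM needed for testing only in DKO libraries. Neutrophil markers stayed at or below 13.1 FPKM in CD93- cells, with Mpo at 0 in all 3 CTL libraries, and summed to 1599 to 2229 against 444 to 1400.0 FPKM in CD93+ cells, where Ltf fell (77.9 ± 14.2 to 32.9 ± 14.2 FPKM) and after rescaling S100a8, S100a9, Camp and Ngp fell as well, 5 of 7 in all. Red cell markers summed to 41.9 to 60.02 against 170 to 198 FPKM in CD93- cells, where Hba-a1 (19.9 ± 17.4 to 79.4 ± 21.2 FPKM) and Hbb-b2 (11.9 ± 10.5 to 57.4 ± 18.4 FPKM) rose, and to 15068 to 64340 against 3296 to 15664 FPKM in CD93+ cells. There 6 of 7 fell with the authors' scaling, among them Hba-a2 (5329 ± 2886 to 1386 ± 1030.4 FPKM), Hbb-b2 (11877 ± 6486 to 2859 ± 1818 FPKM) and Alas2 (328 ± 195 to 58.7 ± 34.8 FPKM), and 0 after rescaling. The high red cell values were those of CTL replicates 1 and 2, while CTL replicate 3 was near DKO replicates 1 and 2. The part of these other cells in the members' changes was not tested.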

How the data were processed

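Strand-specific libraries were made from total RNA, per the labels' protocols. The authors deposited FPKM values for 23234 genes in both tables. The submitters' processing notes list the tools TopHat2 2.0.8, Bowtie2 2.1.0 and Cufflinks 2.1.1, without their order, and the build mm9. The annotation, filters and treatment of reads shared between genes are not given in the sources used here. FPKM hold no counts, so the depth of a library is unknown, count models were not used, and no detection limit is given.

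The 12 libraries were grouped by title and genotype label. A further 6 columns of the CD93+ table repeated the values used and were left out, and 25 gene names had turned into dates. A gene was tested where 3 or more libraries of its table reached 1 FPKM. With all CTL libraries under 1 FPKM, a gene could enter only through high DKO libraries. This held for Asns and Fam46c in CD93- cells and for Chac1 and Gzmb in CD93+ cells. Tests were run on log2(FPKM + 1) with limma 3.58.1 in R 4.3.3 (mean-variance trend, two-sided), each population alone, with Benjamini-Hochberg adjustment and a threshold of 0.05. The fit was tested on simulated data. Other settings tried were a pseudocount of 0.1 or 5, a filter of 5 FPKM or none, upper quartile rescaling, a replicate block, sample quality weights, quantile normalization, no mean-variance trend, sex read from Xist and Ddx3y as a covariate (CD93+ only), and each library left out.

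All 41 members are named. Values in every library are given for the called members with the largest change in each role and for Hspa5, Hsp90b1, the sensors, Atf4 and Ddit3. Of each further list up to 4 called genes, and of each marker list up to 3, whose mean reached 5 FPKM in either group are named by size of change, and Sdc1, genes named for a fall after rescaling and members given in full beyond this rule were chosen after their values were seen. Members, lists and elements were chosen with earlier results of these data known. Promoter sequences are from RefSeq, build GRCm38.p6, and Ero1l and Ero1lb were matched as Ero1a and Ero1b. The test of the B cell marker list is not reported here.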

Additional observations from a re-analysis of the deposited data

How the results depend on the processing

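In CD93- cells the count of members that rose lay between 20 and 27 over all 22 alternatives, within 1.5 times of 25, and 17 of the 25 rose in every one. The 8 others were Dnajb9, Canx, Pdia4, Txndc11, Ppib, Fkbp11, Edem1 and Edem2. In CD93+ cells the count depended on the setting, and the cause was not tested. It was 1 without a filter, 29 after upper quartile rescaling, 29 with quantile normalization, 24 with sample quality weights, 5 with the replicate block, 24 with rescaling and the replicate block, 2 with sex as a covariate and 22 with both rescaling and sex. Members that fell numbered 2 in CD93- cells after rescaling, 2 with quantile normalization and 1 with rescaling and the replicate block. In CD93+ cells 2 fell after rescaling and 3 with quantile normalization. Deviations from the group means correlated at -0.14 to 0.17 for same-numbered libraries and at -0.31 to 0.34 for differently numbered ones. With 3 libraries per group this cannot show whether replicate numbers pair the libraries. In CD93- cells 26 members rose with the replicate block, so it moved the CD93+ count only. Leaving out 1 library at a time, under both scalings, gave 20 to 27 members that rose and 0 to 2 that fell in CD93- cells, and 3 to 28 and 0 to 2 in CD93+ cells.

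Counts over all tested genes moved with the settings too. In CD93- cells 184 fell without a filter, 2609 after rescaling, 2314 with quantile normalization and 2078 with rescaling and the block, and 1361 rose with quality weights. In CD93+ cells the genes that rose and fell were 11 and 5 without a filter, 73 and 95 with a filter of 5 FPKM, 1280 and 1051 after rescaling, 1103 and 1127 with quantile normalization, and 106 and 82 without a trend. They were 541 and 357 with rescaling and the block, and 80 and 47 with sex. With the block alone 99 fell, with quality weights 551 rose, and with rescaling and sex 398 rose. Leaving out 1 library gave 1249 to 2546 and 181 to 2291 in CD93- cells, and 103 to 1135 and 60 to 966 in CD93+ cells. Set against the median of all tested genes, the members' median log2 change, 0.52 in CD93- cells, was 0.42 with a pseudocount of 5, 0.58 without a filter, 0.49 with a filter of 5 FPKM, 0.47 with quantile normalization, 0.49 with quality weights and 0.47 to 0.52 on leaving out 1 library. In CD93+ cells it was 0.93, and 0.73, 0.70 and 1.19 with a pseudocount of 5, without a filter and with quality weights, and 0.83 to 1.07 on leaving out 1 library.

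No member that passed with the authors' scaling changed sign. Those that did, listed here with Tet2, include some that passed after rescaling. Such were Canx, Txndc11 and Derl1, which rose in CD93+ cells, and Eif2ak3, which fell in CD93- cells. In CD93- cells after rescaling, with or without the replicate block, these were Ero1lb (-0.063), Derl2 (-0.039), Edem3 (-0.077), Ern1 (-0.18), Eif2ak3 (-0.17), Atf4 (-0.0053) and Ddit3 (-0.091). With quantile normalization they were Ero1lb (-0.095), Edem3 (-0.019), Ern1 (-0.13), Eif2ak3 (-0.17), Atf4 (-0.034) and Ddit3 (-0.061), and with quality weights Ern1 (-0.073) and Eif2ak3 (-0.046). In CD93+ cells after rescaling, with or without the block, Derl2 (0.14), Syvn1 (0.056), Atf6 (0.16), Ddit3 (0.11) and Wfs1 (0.092) turned. With quantile normalization Derl2 (0.17), Atf6 (0.18), Ddit3 (0.13) and Wfs1 (0.026) did, with quality weights Derl2 (0.39), Syvn1 (0.28), Atf6 (0.24), Ddit3 (0.29) and Tet2 (0.079), and with sex Canx (-0.045), Ern1 (-0.0905) and Wfs1 (0.084). With rescaling and sex Derl2 (0.16), Atf6 (0.18), Wfs1 (0.27) and Tet2 (0.011) turned. On leaving out 1 library, log2 changes that crossed 0 ran in CD93- cells from -0.034 to 0.26 (Ero1l), -0.11 to 0.25 (Ero1lb), -0.099 to 0.28 (Derl2), -0.11 to 0.22 (Edem3), -0.22 to 0.058 (Ern1), -0.21 to 0.11 (Eif2ak3), -0.042 to 0.28 (Atf4), -0.18 to 0.18 (Ddit3), -0.00050 to 0.38 (Wfs1), and -0.044 to 0.31 (Tet2). In CD93+ cells they ran from -0.063 to 0.40 (Canx), -0.012 to 0.46 (Txndc11), -0.44 to 0.013 (Ero1lb), -0.0796 to 0.45 (Derl1), -0.34 to 0.24 (Derl2), -0.44 to 0.16 (Syvn1), -0.15 to 0.30 (Ern1), -0.21 to 0.22 (Atf6), -0.32 to 0.22 (Ddit3), -0.12 to 0.17 (Wfs1) and -0.48 to 0.01997 (Tet2). The FPKM give no depth, so the precision of low members such as Trib3, Chac1, Wfs1 and Ern1 is unknown.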
